A study of Homo sapiens with 4 samples.

Results

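Mitosis, spindle and kinetochore genes were followed as a set of 54 genes, chosen by symbol for their known roles. Earlier results of these data were known when the set was chosen. It covers mitotic entry kinases and cyclins, the spindle checkpoint, the kinetochore, motor and microtubule proteins, and the cleavage furrow. The transcription factors FOXM1 and MYBL2 are also included. All 54 were found among the 43622 genes of the deposited table. Cells enter mitosis when cyclin B binds and activates CDK1, and PLK1 and the Aurora kinases then drive centrosome separation and spindle assembly. The spindle checkpoint holds the anaphase-promoting complex until kinetochores are attached, after which CDC20 triggers the destruction of cyclin B and securin. Transcripts of most of these genes are low in G1 and accumulate towards G2 and M, under repression by the DREAM complex early in the cycle and activation by MYBL2 and FOXM1 later.

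RNA-seq was made on PC3 cells, an established line of human prostate adenocarcinoma, after 3 days with DMSO (Ctrl) or 1 µM MLN4924 (MLN), and on PC3-shp14ARF cells with DMSO (shARF) or 1 µM MLN4924 (Both). MLN4924 inhibits NEDDylation, the modification that activates cullin-RING ubiquitin ligases. PC3-shp14ARF cells carry a short hairpin RNA (shRNA) against p14ARF that was brought in stably by a retrovirus, and no control shRNA is named for the Ctrl and MLN cells, so that depletion and the making of the line cannot be told apart. The labels list 1 sample per condition and the table holds 3 libraries for each, 12 in all, which are not said to be separate cultures, so p-values measure only the spread between these libraries, which may be technical. Values are TPM, a level per transcript length that sums to the same total in every library, so the depth behind each value is unknown. Fold changes are differences in log2(TPM + 0.1) and are given on this log2 scale, which understates the change of low genes. They were tested with limma on the 19932 genes whose mean reached 0.1 TPM, and those with an adjusted p below 0.05 are said to be called. All 54 mitosis genes reached this mean, with means from 4.775 TPM (ASPM) to 380.8 TPM (UBE2C). The genes tested thus include genes of lower level than any of the 54. The part of this in the comparisons with all genes tested was not tested.

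CDKN2A, the gene of p14ARF, was between 177 and 190 TPM in Ctrl and 100 and 133 TPM in MLN. It was between 58.2 and 60.9 TPM in shARF and 41.2 and 54 TPM in Both. CDKN2A was lower in every library with the shRNA than in every library without it. Values are per gene, so they do not give the level of the p14ARF transcript alone. Epithelial and mesenchymal markers of PC3 cells (KRT8, KRT18, EPCAM, VIM and CD44) summed to 1340 to 1460 TPM in Ctrl, 668 to 765 TPM in MLN, 1300 to 1430 TPM in shARF and 546 to 586 TPM in Both. KLK3, which encodes prostate-specific antigen, was listed at 0 in all 12 libraries. Of 6 markers of blood, stromal and endothelial cells, PECAM1 was above 1 TPM in Ctrl and shARF libraries and COL1A1 in all libraries, and the 6 summed to 18.1 to 20.7 TPM in Ctrl, 17.9 to 20.6 TPM in MLN, 5.5 to 6.68 TPM in shARF and 6.15 to 7.02 TPM in Both. The share of TPM in genes of the mitochondrial genome was 7.85% to 10.9% in Ctrl, 8.43% to 12.9% in MLN, 6.04% to 8.03% in shARF and 10.2% to 13.2% in Both, without overlap of shARF and Both. The 10 most abundant genes took the smallest share in shARF (9.08% to 10.0%), against 11.3% to 16.1% in the other groups. The part of these differences in the results below was not tested.

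Promoter sequence was compared for the members present in a RefSeq table of GRCh38.p14 that gives 250 bases before and 50 bases after each transcript start, which held 47 of the 54. AURKA, BUB3, TTK, UBE2C, BIRC5, TPX2 and FOXM1 had no entry. The letters searched, on both strands and with overlapping matches counted, were CCAAT, the core of the site bound by NF-Y, and TTTGAA or TTCGAA, the cell cycle genes homology region (CHR) through which MuvB complexes bind. CCAAT letters were found for 38 of 47 members (80.9%), against 39.7% of the 27305 genes of the table, and CHR letters for 35 of 47 (74.5%), against 19.5%. In the 150 bases from 100 before to 50 after the start, 34 members held CCAAT letters and 33 held CHR letters. The 2 kinds of letters stood in windows of genes that rose and of genes that fell with MLN4924. Of the members called higher in MLN vs Ctrl, 19 of 23 held CCAAT letters and 14 held CHR letters. Of the members called lower, 13 of the 14 with an entry held CCAAT letters and 11 held CHR letters, and of the members not called, 6 of 10 and 10 of 10.

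The 150-base stretches of 6 genes are shown as examples. In MLN vs Ctrl, PLK1, CDC20 and HMMR had called falls below −1 and CDK1, SPC25 and MYBL2 called rises above 1. They are not the largest changes, since CDC25B fell more than CDC20 and HMMR, and SPC24 and ESPL1 rose more than SPC25. Of the genes with such changes that are not shown and have an entry, CDC25B, KIF4A and ESPL1 held both kinds of letters. KIF20A and SPC24 held CCAAT letters but no CHR letters. The stretches run 5′ to 3′ on the strand of the gene, and capitals mark CCAAT letters, CHR letters and their reverse complements. CDK1 has a pair of windows in the table, and the downstream start is shown because the upstream stretch held neither kind of letters. The stretches lie at chr16:23678789-23678938 (PLK1, plus strand), chr1:43358881-43359030 (CDC20, plus strand), chr5:163460532-163460681 (HMMR, plus strand), chr10:60778378-60778527 (CDK1, plus strand), chr2:168890381-168890530 (SPC25, minus strand) and chr20:43667014-43667163 (MYBL2, plus strand).
PLK1: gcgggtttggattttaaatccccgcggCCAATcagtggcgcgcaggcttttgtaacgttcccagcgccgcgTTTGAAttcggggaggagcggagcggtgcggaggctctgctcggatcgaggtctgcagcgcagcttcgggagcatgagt
CDC20: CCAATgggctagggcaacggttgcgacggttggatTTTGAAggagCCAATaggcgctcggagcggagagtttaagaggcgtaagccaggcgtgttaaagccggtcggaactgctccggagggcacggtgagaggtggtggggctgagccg
HMMR: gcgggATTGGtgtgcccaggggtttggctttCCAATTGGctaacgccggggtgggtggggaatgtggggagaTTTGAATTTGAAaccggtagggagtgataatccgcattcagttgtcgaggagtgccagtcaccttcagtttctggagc
CDK1: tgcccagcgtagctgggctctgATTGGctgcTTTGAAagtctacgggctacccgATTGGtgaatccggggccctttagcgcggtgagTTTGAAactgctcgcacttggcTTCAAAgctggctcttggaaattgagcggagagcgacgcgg
SPC25: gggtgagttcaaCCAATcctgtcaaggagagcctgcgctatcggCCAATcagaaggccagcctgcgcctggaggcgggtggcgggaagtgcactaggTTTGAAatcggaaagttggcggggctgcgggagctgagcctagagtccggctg
MYBL2: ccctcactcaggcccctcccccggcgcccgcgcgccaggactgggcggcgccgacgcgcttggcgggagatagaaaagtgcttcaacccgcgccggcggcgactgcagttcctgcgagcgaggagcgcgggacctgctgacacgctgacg
PLK1, which fell, and SPC25, which rose, each held CCAAT letters upstream of a CHR match, and MYBL2 held neither. A match is a description of the letters and not of a bound site.

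**Figure D1:**
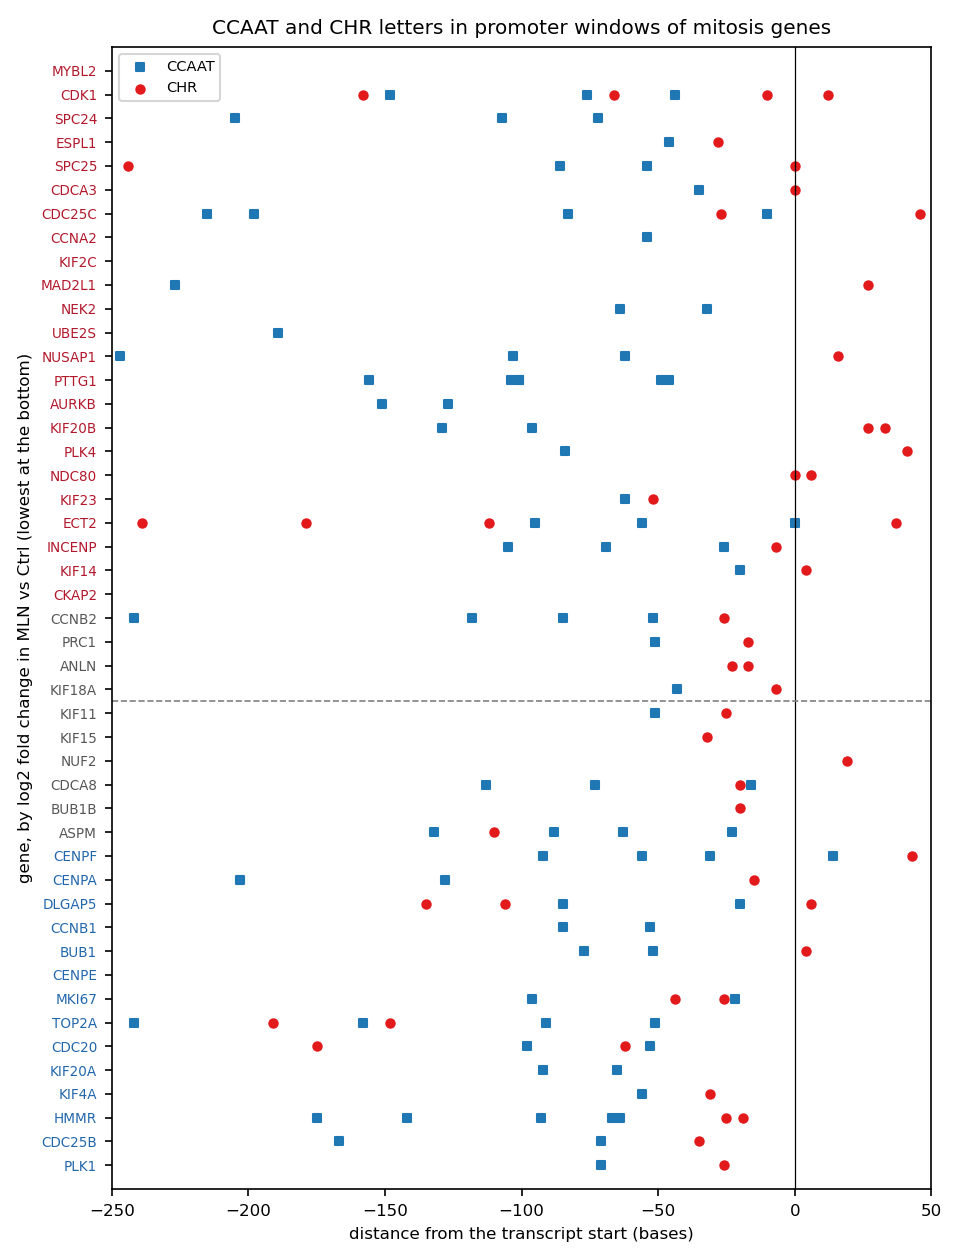
Positions of CCAAT letters (squares) and CHR letters (circles) in the promoter windows of the 47 mitosis genes with an entry, by distance from the transcript start in bases, with genes ordered by log2 fold change in MLN vs Ctrl; gene names in red were called higher, in blue lower and in grey not called, and the dashed line separates falls from rises. CCAAT letters were found for 38 of the 47 genes and CHR letters for 35, among genes that rose as well as genes that fell.

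To see how the mitotic programme of PC3 cells responded to MLN4924, MLN was compared with Ctrl. Of the 54 mitosis genes, 23 (42.6%) were called higher and 16 (29.6%) lower, against 32.2% and 29.4% of all genes tested, and 15 were not called. The median log2 fold change over the 54 was 0.07, beside 0.05 over all genes tested. The share of falls and the median were thus near those of all genes, and calls in both directions are not particular to this set. Called changes were above 1 on the log2 scale for 5 genes (MYBL2, CDK1, ESPL1, SPC24 and SPC25), against 15.6% of all genes tested. They were below −1 for 7 (PLK1, CDC25B, HMMR, AURKA, KIF4A, KIF20A and CDC20), against a similar 12.4%. In PC3-shp14ARF cells the same treatment (Both vs shARF) gave 11 genes higher and 30 lower, against 28.3% and 32.8% of all genes tested, with a median of −0.27 beside −0.04 over all genes tested. All TPM of the 54 genes summed to between 3137 and 3428 in Ctrl, 3241 and 3788 in MLN, 4277 and 4360 in shARF and 3331 and 3473 in Both, and the shARF libraries were above all others. In RNA from whole cultures, a change in the share of cells in mitosis and a change in RNA per mitotic cell cannot be told apart. From DNA content, the paper reports that MLN4924 arrested PC3 cells in G2/M, and somewhat less so after p14ARF depletion. Its plotted share includes cells in S phase, and its legend and methods give different times. The part of this arrest in the levels given here was not tested. From its RNA-seq, with a stricter cutoff on fold change, the paper concludes that depletion had a minor effect on the response to MLN4924. With DMSO it found no significant difference in proliferation between the lines.

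**Figure D2:**
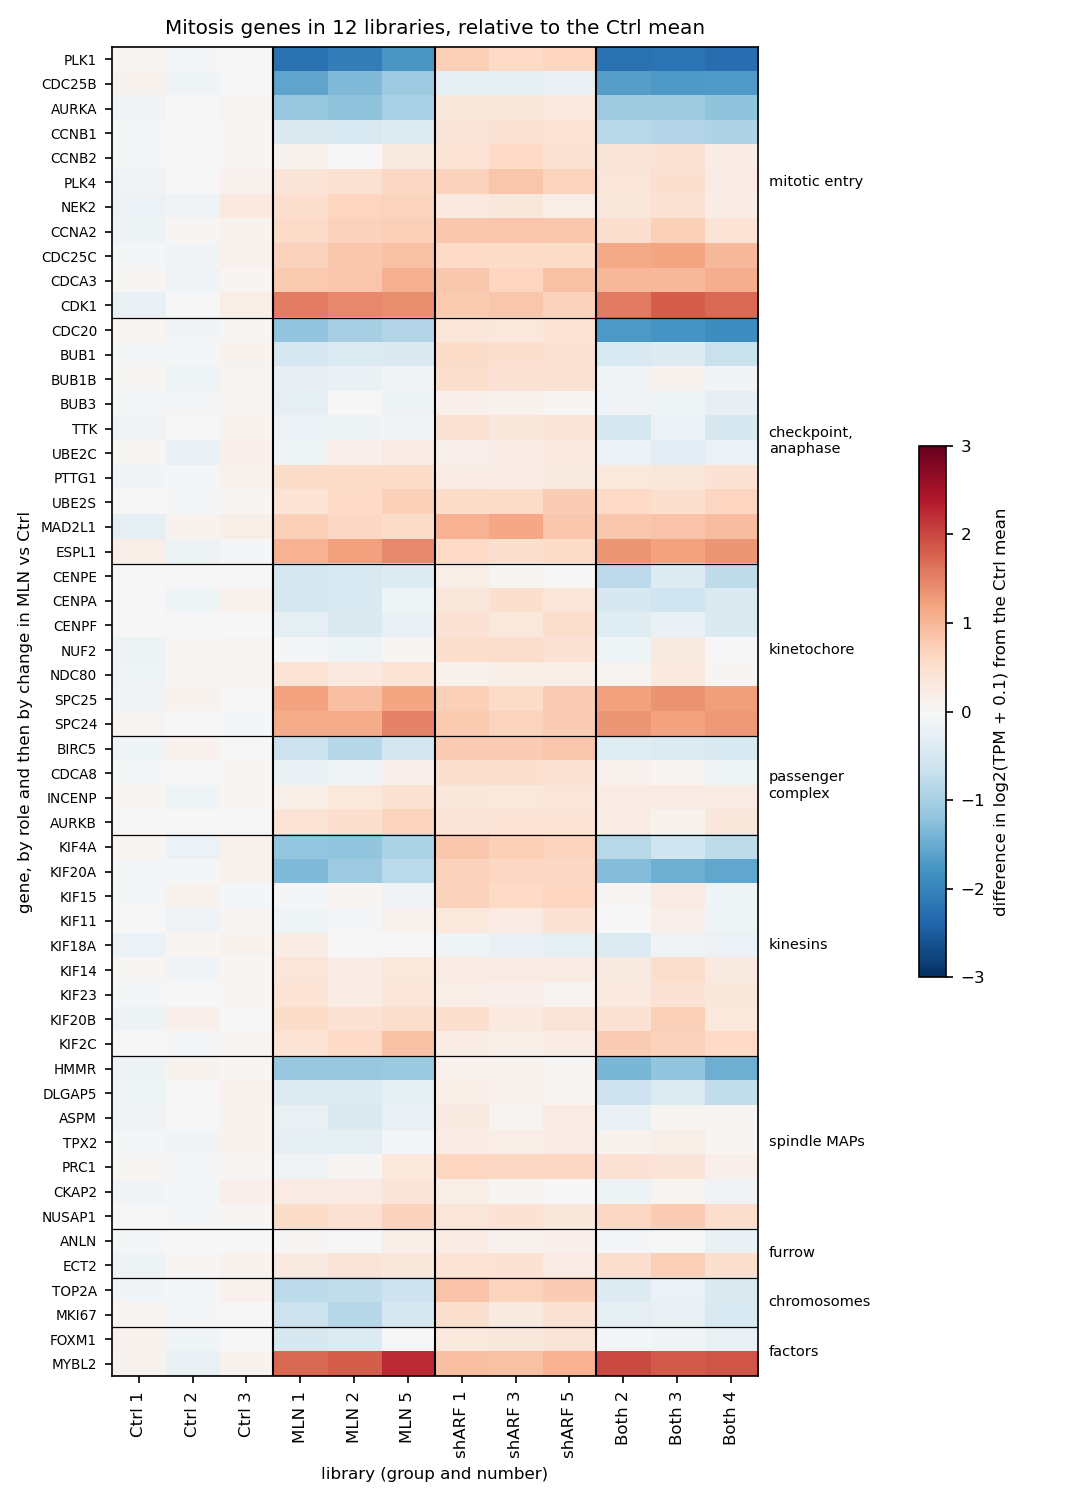
Difference in log2(TPM + 0.1) of each of the 54 genes from its Ctrl mean (colour, blue lower and red higher) in each of the 12 libraries (columns, named by group and library number), with genes grouped by role. PLK1, CDC25B, CDC20 and HMMR were lower in every MLN and Both library and MYBL2, CDK1, ESPL1, SPC24 and SPC25 were higher, while most genes were higher in the shARF libraries.

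Among the 11 genes of mitotic entry, CDK1 and PLK1 went opposite ways after MLN4924. CDK1, the kinase that cyclin B activates, was at 62.2, 73.5 and 83.5 TPM in Ctrl, 211, 197 and 192 TPM in MLN, 124, 130 and 116 TPM in shARF and 214, 254 and 237 TPM in Both. The 4 groups did not overlap, in the order Ctrl, shARF, MLN and Both. CDK1 rose in MLN vs Ctrl (1.46, standard error 0.11, adjusted p = 0.0001) and in Both vs shARF (0.92, standard error 0.08, adjusted p = 0.000144). The step from MLN to Both was not called (0.23, adjusted p = 0.0765). PLK1, the kinase of centrosome maturation and mitotic exit, was at 55.1, 51.9 and 52.3 TPM in Ctrl, 11.3, 12.5 and 15.7 TPM in MLN, 87.0, 80.4 and 82.8 TPM in shARF and 11.1, 11.4 and 10.8 TPM in Both. PLK1 fell by 2.02 in MLN vs Ctrl (standard error 0.12, adjusted p = 4.33e-05) and by 2.89 in Both vs shARF (standard error 0.045, adjusted p = 7.9e-07). Its MLN and Both libraries overlapped although the shARF libraries started above the Ctrl libraries.

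The cyclins went in different directions. CCNA2, cyclin A of S phase and early mitosis, was at 41.2, 46.9 and 48.7 TPM in Ctrl, 68.1, 73.1 and 75 TPM in MLN, 80.2, 80.8 and 80.3 TPM in shARF and 64.2, 74.6 and 60.1 TPM in Both. In PC3 cells CCNA2 rose with MLN4924 (0.66, adjusted p = 0.00057). CCNA2 was lower in Both vs shARF (−0.28, adjusted p = 0.0246), a call that was lost under 7 of 13 alternatives. Among them were each of the 3 shARF libraries and Both replicates 2 and 4 left out (adjusted p between 0.0549 and 0.0816). The others were median-of-ratios scaling and no filter on low values (adjusted p up to 0.0914). CCNB1, cyclin B1, had no overlap between any of the 4 groups, with 122 to 129 TPM in Ctrl, 91.6 to 95.8 TPM in MLN, 165 to 172 TPM in shARF and 66.2 to 71.2 TPM in Both. It fell in MLN vs Ctrl (−0.43, adjusted p = 0.000292) and in Both vs shARF (−1.30, adjusted p = 4.4e-06). CCNB2, the other B-type cyclin of the set, was not called after MLN4924 in PC3 cells (0.13) or in PC3-shp14ARF cells (−0.13). CCNA2 shares 254 exonic bases with EXOSC9 on the other strand, whose mean over the 12 libraries was 27.7 TPM, and strandedness of the libraries is not stated in the sources used here.

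AURKA, a kinase which builds the spindle poles, was lower in every treated library than in every untreated one. It went from between 118 and 132 TPM in Ctrl to between 53.8 and 63.3 TPM in MLN (−1.11, adjusted p = 6.79e-05) and from between 154 and 159 TPM in shARF to between 54 and 60.1 TPM in Both (−1.44, adjusted p = 6.52e-06). The CDK1-activating phosphatases differed from each other. CDC25B fell in MLN vs Ctrl (−1.33) and in Both vs shARF (−1.42), while CDC25C, which shares 293 exonic bases with FAM53C on the other strand (mean 39.0 TPM), rose (0.80 and 0.54). The centriole kinase PLK4 rose in PC3 cells (0.49, adjusted p = 0.00367) and fell in PC3-shp14ARF cells (−0.37, adjusted p = 0.00822). NEK2, a kinase of centrosome separation, rose in PC3 cells (0.61) and had 0.07 in PC3-shp14ARF cells, where it was not called. CDCA3, a trigger of mitotic entry, rose in PC3 cells (0.89) and by 0.24 in PC3-shp14ARF cells, where the call was lost without shARF replicate 1 or 3 or any of the 3 Both libraries (adjusted p between 0.0563 and 0.0878).

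**Figure D3:**
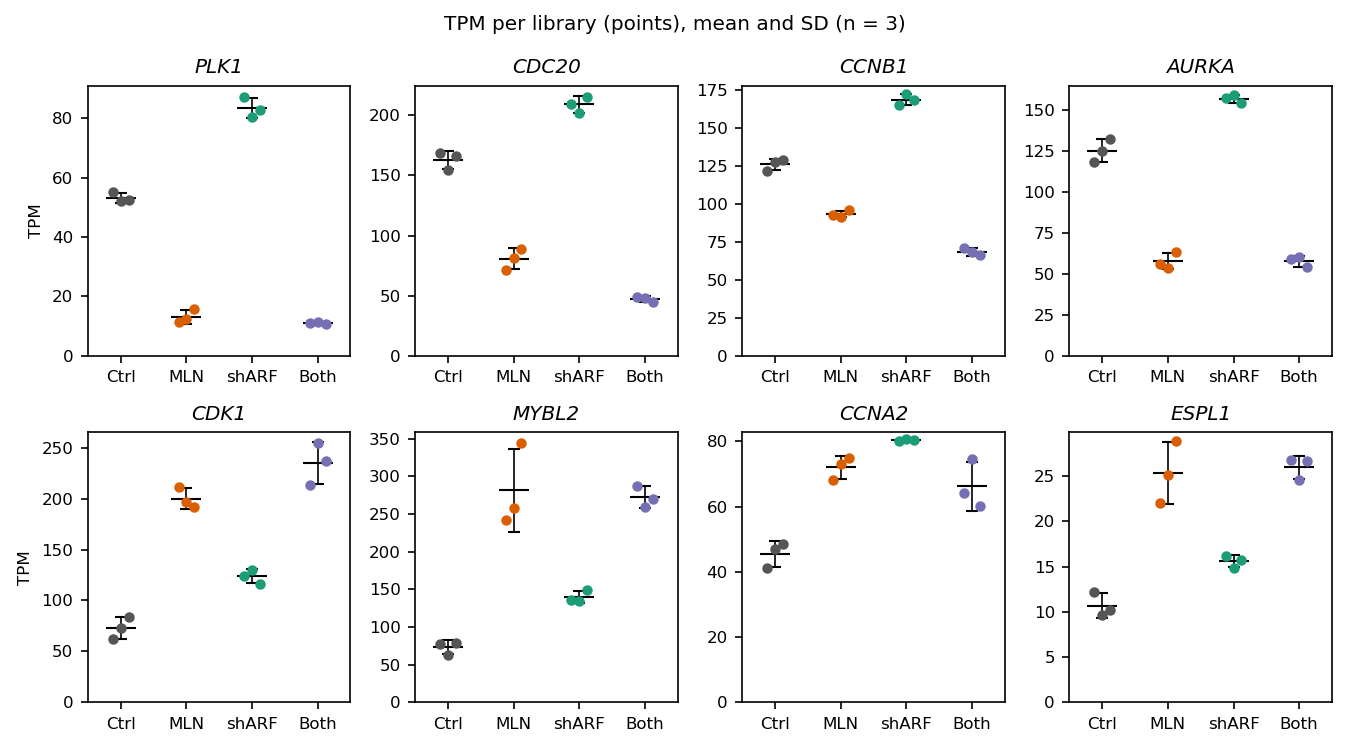
TPM of 8 mitosis genes in each library (points) with the mean and SD of each group (n = 3), on linear axes from 0. PLK1, CDC20, CCNB1 and AURKA were lower in both MLN4924 groups than in the DMSO group of the same cells, CDK1, MYBL2 and ESPL1 were higher, and CCNA2 was higher in MLN than in Ctrl but lower in Both than in shARF.

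Within the spindle checkpoint and anaphase control group of 10, 4 genes were called higher and 2 lower in MLN vs Ctrl. CDC20, the activator of the anaphase-promoting complex, was at 168, 155 and 166 TPM in Ctrl, 71.4, 81.6 and 88.7 TPM in MLN, 210, 202 and 215 TPM in shARF and 49.1, 47.9 and 44.5 TPM in Both. No pair of groups overlapped. CDC20 fell by 1.02 in MLN vs Ctrl (standard error 0.09, adjusted p = 0.000162) and by 2.15 in Both vs shARF (standard error 0.05, adjusted p = 1.96e-06). ESPL1, the protease separase that cleaves cohesin, was at 12.2, 9.62 and 10.2 TPM in Ctrl, 22.1, 25.2 and 28.9 TPM in MLN, 16.2, 14.9 and 15.8 TPM in shARF and 26.8, 24.5 and 26.6 TPM in Both. It rose in PC3 cells (1.24, standard error 0.13, adjusted p = 0.000387) and in PC3-shp14ARF cells (0.73, standard error 0.06, adjusted p = 0.000112). The Both libraries lay inside the range of the MLN libraries. PTTG1, the separase inhibitor securin, whose copy PTTG2 did not exceed 0.228 TPM, also rose in PC3 cells (0.55, adjusted p = 0.000423). Its rise of 0.13 in PC3-shp14ARF cells was lost without any of the 3 shARF libraries (adjusted p between 0.0616 and 0.101).

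UBE2C, a ubiquitin-conjugating enzyme of the anaphase-promoting complex, had the highest mean level of the group, with 382, 326 and 412 TPM in Ctrl, 341, 416 and 437 TPM in MLN, 414, 430 and 457 TPM in shARF and 330, 296 and 329 TPM in Both. Ctrl and MLN overlapped (0.09, adjusted p = 0.566), and UBE2C fell in Both vs shARF (−0.45, adjusted p = 0.00142). Its partner UBE2S, which extends ubiquitin chains, rose in PC3 cells (0.58, adjusted p = 0.00136) and had −0.06 in PC3-shp14ARF cells, not called. Of the checkpoint proteins themselves, MAD2L1 rose in PC3 cells (0.63, adjusted p = 0.00602) and BUB1 fell (−0.45, adjusted p = 0.0012), whereas BUB1B, BUB3 and TTK were not called. In PC3-shp14ARF cells BUB1 (−1.0), BUB1B (−0.49), BUB3 (−0.25) and TTK (−0.78) fell and MAD2L1 was not called (−0.13).

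At the kinetochore the subunits of the NDC80 complex, which binds microtubules, were unequal. SPC24 was at 18.6, 17.5 and 17 TPM in Ctrl, 38.5, 38.2 and 50.2 TPM in MLN, 30.7, 28.4 and 30.0 TPM in shARF and 44.7, 41.2 and 43.6 TPM in Both. SPC25 was at 18.1, 20.4 and 18.9 TPM in Ctrl, 43.9, 35.9 and 43.7 TPM in MLN, 31.2, 28.5 and 32.5 TPM in shARF and 45.1, 48.7 and 45.5 TPM in Both. Both subunits rose in MLN vs Ctrl (SPC24 1.24, adjusted p = 0.000232, and SPC25 1.1, adjusted p = 0.000179) and in Both vs shARF (0.54 and 0.59), with no overlap of treated and untreated libraries of the same cells. NDC80 rose in PC3 cells (0.37, adjusted p = 0.00534) and NUF2 was not called (−0.04). In PC3-shp14ARF cells NUF2 fell (−0.45, adjusted p = 0.0125) while NDC80 was not called (−0.02).

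The centromere proteins CENPA, CENPE and CENPF were called lower in both lines. CENPE, the kinesin that carries chromosomes to the spindle equator, was at 9.21, 9.08 and 9.06 TPM in Ctrl, 6.33, 6.61 and 6.95 TPM in MLN, 10.6, 9.59 and 9.14 TPM in shARF and 5.22, 6.90 and 5.30 TPM in Both. It fell by 0.46 in MLN vs Ctrl (adjusted p = 0.00163) and by 0.75 in Both vs shARF (adjusted p = 0.00322), with no overlap of treated and untreated libraries. CENPF fell by 0.32 and 0.76 in the same comparisons. CENPA, the histone variant of centromeres, fell by 0.90 in Both vs shARF, and its fall of 0.35 in MLN vs Ctrl (adjusted p = 0.0389) was lost without Ctrl replicate 1 or 3 or MLN replicate 1 or 2 (adjusted p between 0.0949 and 0.122). CENPA shares 138 exonic bases with SLC35F6 on the same strand (mean 46.7 TPM).

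In the chromosomal passenger complex, which corrects faulty attachments, the kinase and the survivin subunit went opposite ways in PC3 cells. BIRC5, survivin, was at 118, 140 and 129 TPM in Ctrl, 81.7, 70.8 and 88.3 TPM in MLN, 218, 217 and 230 TPM in shARF and 100, 96.9 and 94.4 TPM in Both. The 4 groups did not overlap. BIRC5 fell in MLN vs Ctrl (−0.69, adjusted p = 0.00157) and in Both vs shARF (−1.19, adjusted p = 6.52e-06). AURKB, the kinase of the complex, was at 41.4, 40.7 and 41.8 TPM in Ctrl, 55.2, 58.5 and 65.5 TPM in MLN, 53.9, 54.6 and 55.0 TPM in shARF and 48.2, 44.5 and 52.5 TPM in Both. AURKB rose in PC3 cells (0.53, adjusted p = 0.00097). In PC3-shp14ARF cells every treated library was below every untreated library but the difference was not called (−0.17, adjusted p = 0.0577). INCENP, the scaffold, was higher by 0.32 in MLN vs Ctrl and lower in Both vs shARF (−0.11). The call in MLN vs Ctrl was lost without Ctrl replicate 2, MLN replicate 2 or MLN replicate 5 (adjusted p up to 0.0737). That in Both vs shARF was lost under 8 of 13 alternatives, among them 3 of the libraries left out and median-of-ratios scaling, where the value was −0.01 (adjusted p = 0.824). CDCA8, borealin, was not called in PC3 cells (−0.05) and fell in PC3-shp14ARF cells (−0.45, adjusted p = 0.00243).

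Of the 9 kinesins, KIF4A and KIF20A fell and KIF2C, KIF14, KIF20B and KIF23 rose in MLN vs Ctrl. KIF4A, a chromosome-bound motor, was at 33.7, 28.8 and 35.2 TPM in Ctrl, 14.5, 14.1 and 16.6 TPM in MLN, 56.6, 53.6 and 52.0 TPM in shARF and 18.1, 21.4 and 19.0 TPM in Both. KIF20A, the motor that brings passenger proteins to the midzone, was at 42.2, 42.3 and 47.9 TPM in Ctrl, 17.5, 20.7 and 25 TPM in MLN, 70.8, 67.7 and 67.4 TPM in shARF and 17.9, 16 and 14.9 TPM in Both. These motors fell in both lines without overlap between treated and untreated libraries (KIF4A −1.1 and −1.47, KIF20A −1.07 and −2.07 in MLN vs Ctrl and Both vs shARF). KIF2C, the microtubule depolymerase of the centromere, was at 41.4, 39.8 and 44.3 TPM in Ctrl, 55.9, 63.0 and 77.1 TPM in MLN, 48.9, 47.5 and 48.7 TPM in shARF and 71.3, 67.9 and 63.1 TPM in Both. It rose in PC3 cells (0.63, adjusted p = 0.00497) and in PC3-shp14ARF cells (0.48, adjusted p = 0.000459). KIF23, the centralspindlin motor, rose in both lines (0.34 and 0.21), and the call in PC3-shp14ARF cells was lost without shARF replicate 5 (adjusted p = 0.0517). KIF11, the motor that separates spindle poles, and KIF15 were not called in PC3 cells (−0.02 and −0.03) and fell in PC3-shp14ARF cells (−0.33 and −0.60). The call of KIF11 was lost without shARF replicate 1, shARF replicate 5 or Both replicate 2 (adjusted p between 0.0587 and 0.0664). The difference between the lines was not called for KIF11 (−0.31, adjusted p = 0.0944). KIF18A was called in neither line. KIF20A shares 132 exonic bases with BRD8 (mean 29.0 TPM) and KIF4A 77 with PDZD11 (mean 229 TPM), in each case on the other strand, and the copy KIF4B did not exceed 1.08 TPM.

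Among 7 microtubule-associated proteins of the spindle, HMMR and DLGAP5 fell and NUSAP1 and CKAP2 rose in MLN vs Ctrl. HMMR, an adaptor at spindle poles, was at 29.2, 35.0 and 34.2 TPM in Ctrl, 14.9, 14.9 and 15.1 TPM in MLN, 35.6, 35.5 and 33.6 TPM in shARF and 12.5, 14.3 and 11.7 TPM in Both. HMMR fell in MLN vs Ctrl (−1.12, adjusted p = 7.18e-05) and in Both vs shARF (−1.44, adjusted p = 3.13e-05), and its DMSO libraries overlapped between the lines. NUSAP1, which bundles microtubules, was at 111, 109 and 115 TPM in Ctrl, 164, 152 and 181 TPM in MLN, 144, 151 and 142 TPM in shARF and 171, 190 and 161 TPM in Both. It rose in PC3 cells (0.56, adjusted p = 0.000739), and its rise of 0.25 in PC3-shp14ARF cells was lost without shARF replicate 1, shARF replicate 5 or Both replicate 2 (adjusted p between 0.0547 and 0.0716). NUSAP1 shares 352 exonic bases with OIP5 on the other strand (mean 47.3 TPM) and 195 with OIP5-AS1 on its own strand (mean 47.7 TPM). An unnamed gene model on the same strand, not analysed here, covers 2938 of its 3608 exonic bases, so its values are uncertain. TPX2, the activator of AURKA, was at 177, 170 and 195 TPM in Ctrl, 148, 146 and 175 TPM in MLN, 213, 207 and 215 TPM in shARF and 195, 204 and 188 TPM in Both. It was called in neither line after MLN4924 (−0.21 and −0.11). CKAP2 was at 24.8, 25.1 and 28.9 TPM in Ctrl, 31.1, 31.3 and 34.5 TPM in MLN, 30.3, 27.8 and 26.3 TPM in shARF and 23.7, 27.6 and 24.3 TPM in Both. Its rise of 0.30 in PC3 cells was lost without Ctrl replicate 1, Ctrl replicate 2 or MLN replicate 5 (adjusted p between 0.0564 and 0.0609). In PC3-shp14ARF cells CKAP2 was not called (−0.16). PRC1, which crosslinks the midzone, had 0.08 in PC3 cells, not called, and −0.31 in PC3-shp14ARF cells, called lower, and the difference between the lines was not called (−0.38, adjusted p = 0.0527). A like model covers 3181 of the 5523 exonic bases of PRC1. ASPM was called in neither line.

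Of the genes of the cleavage furrow, ECT2 rose in PC3 cells and ANLN was lower in treated PC3-shp14ARF cells. ECT2, which activates RhoA at the furrow, was at 37.5, 42.8 and 44.4 TPM in Ctrl, 50.4, 53.8 and 52.3 TPM in MLN, 55.3, 55.8 and 49.1 TPM in shARF and 58.7, 68.6 and 59.1 TPM in Both. It rose in PC3 cells (0.33, adjusted p = 0.00865) and had 0.22 in PC3-shp14ARF cells, not called, with no called difference between the lines (−0.11, adjusted p = 0.514). ANLN, the furrow scaffold anillin, was at 47.7, 49.1 and 48.8 TPM in Ctrl, 49.4, 48.2 and 55.5 TPM in MLN, 56.4, 53.4 and 54.1 TPM in shARF and 47.3, 48.7 and 42.3 TPM in Both. ANLN was not called in PC3 cells (0.07), and its fall of 0.25 in PC3-shp14ARF cells was lost without shARF replicate 1 (adjusted p = 0.0568).

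The proliferation markers TOP2A and MKI67, which act on mitotic chromosomes, fell in both lines. TOP2A was at 58.0, 59.8 and 67.5 TPM in Ctrl, 35.5, 37.1 and 40.0 TPM in MLN, 111, 97.4 and 104 TPM in shARF and 46.9, 54.4 and 45.7 TPM in Both. It fell in MLN vs Ctrl (−0.71, adjusted p = 0.000393) and in Both vs shARF (−1.09, adjusted p = 0.000105). MKI67, the gene of Ki-67, was at 14.2, 13.2 and 13.7 TPM in Ctrl, 8.79, 7.50 and 9.57 TPM in MLN, 19.2, 16.4 and 18.6 TPM in shARF and 11.2, 11.7 and 9.90 TPM in Both. MKI67 fell in the same comparisons (−0.67, adjusted p = 0.00172, and −0.72, adjusted p = 0.000849). For both genes the groups of each line did not overlap, and the shARF libraries were the highest.

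MYBL2 was at 78, 62.6 and 78.8 TPM in Ctrl, 241, 258 and 344 TPM in MLN, 136, 134 and 149 TPM in shARF and 288, 259 and 270 TPM in Both. It had the largest rise of the 54 genes in MLN vs Ctrl (1.93, standard error 0.16, adjusted p = 0.000137) and also in Both vs shARF (0.96, standard error 0.06, adjusted p = 5.12e-05). MLN and Both overlapped. FOXM1 was at 87.3, 73.3 and 80.4 TPM in Ctrl, 57.2, 60.6 and 81.4 TPM in MLN, 100, 101 and 105 TPM in shARF and 78.5, 76.2 and 68.9 TPM in Both. FOXM1 had −0.29 in PC3 cells (adjusted p = 0.134) and fell in PC3-shp14ARF cells (−0.45, adjusted p = 0.000871), and these changes were not called different (−0.17, adjusted p = 0.49). In PC3 cells it was called lower without MLN replicate 5 and with all 12 libraries in one fit (adjusted p down to 0.0114). FOXM1 shares 782 exonic bases with ITFG2 on the other strand (mean 4.05 TPM).

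The split was also seen as ratios of levels within a library, since TPM is per transcript length. In PC3 cells the ratio of MYBL2 to FOXM1 went from 0.910 ± 0.064 (SD, n = 3) with DMSO to 4.23 ± 0.018 with MLN4924, and in PC3-shp14ARF cells from 1.37 ± 0.046 to 3.66 ± 0.26. The ratio of CDK1 to CCNB1 went from 0.578 ± 0.069 to 2.14 ± 0.13 in PC3 cells and from 0.732 ± 0.036 to 3.44 ± 0.38 in PC3-shp14ARF cells. The kinase transcript was below that of its cyclin in every DMSO library and above it in every MLN4924 library. The ratio of CDK1 to PLK1 went from 1.38 ± 0.24 in Ctrl to 15.6 ± 3.3 in MLN, and from 1.48 ± 0.12 in shARF to 21.1 ± 1.7 in Both. These ratios describe genes already given above, and were not tested.

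To ask whether the response to MLN4924 depended on the line, the fold change in Both vs shARF less that in MLN vs Ctrl was tested as an interaction, with all 12 libraries in the fit. It was negative for 34 of the 54 genes and positive for 0 at an adjusted p below 0.05 in limma, against 17.1% and 11.2% of all genes tested, and the median was −0.41 beside −0.08 over all genes tested. At an unadjusted p below 0.05, 42 were negative and 0 positive. In sign alone 52 of the 54 estimates were below 0, and those of TPX2 and ASPM were 0.10 and 0.07. With median-of-ratios scaling in place of the deposited TPM scale, 24 of the 54 were called, all negative, against 14% of all genes tested, and the calls over all genes changed from 39.5% positive to 53.5% positive. Without the filter on low values 22 were called. The count lay between 25 and 40 when a library was left out, and 9 of the 34 calls were lost without at least 1 library (CDCA8, NUF2, NEK2, ANLN, ESPL1, BUB1B, NUSAP1, TOP2A and AURKA, with adjusted p up to 0.101), each of the 12 libraries costing at least 1 of these calls.

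The genes with the largest interaction were CDC20 (−1.13, standard error 0.11, adjusted p = 1.46e-05), KIF20A (−1.0, adjusted p = 0.000667), MYBL2 (−0.97, adjusted p = 0.00152), CCNA2 (−0.95, adjusted p = 0.000115), PLK1 (−0.87, adjusted p = 0.00057), CCNB1 (−0.87, adjusted p = 3.34e-06) and PLK4 (−0.86, adjusted p = 0.000355). All of them were called higher in shARF vs Ctrl, and in Both vs MLN only CDC20 and CCNB1 were called, both lower. The interaction equals the fold change in Both vs MLN less that in shARF vs Ctrl, from the same libraries. A higher level in shARF is thus part of a negative interaction and not separate support for it. The directions of the responses of these genes to MLN4924 differed. CDC20, KIF20A, PLK1 and CCNB1 fell in both lines and fell further in PC3-shp14ARF cells. MYBL2 rose in both lines and rose less in PC3-shp14ARF cells, and CCNA2 and PLK4 rose in PC3 cells and were lower in treated than in untreated PC3-shp14ARF cells. For CDC25B (−0.09), MKI67 (−0.05), BUB3 (−0.11), KIF23 (−0.12) and KIF2C (−0.15) the interaction was not called.

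The comparisons MLN vs Ctrl and Both vs shARF share no library. All 16 genes called lower in PC3 cells were called lower in PC3-shp14ARF cells, beside 77.4% of all genes tested that were lower in PC3 cells. Of the 23 called higher in PC3 cells, 11 (47.8%) were called higher in PC3-shp14ARF cells and 9 were not called. The other 3 (CCNA2, PLK4 and INCENP) were called lower, where the calls of CCNA2 and INCENP were unstable as given above. Over all genes tested that were higher in PC3 cells, 68.2% were higher, 27.5% not called and 4.3% lower. Of the 15 not called in PC3 cells, 11 (73.3%) were called lower, beside 22.4% over all genes tested, and 4 (CCNB2, KIF18A, TPX2 and ASPM) were not called. The 7 genes whose call differed between the lines without a called interaction were BUB3, KIF11, KIF14, KIF20B, PRC1, ECT2 and FOXM1. Across the 54 genes, which are not independent replicates, the Pearson r of the fold changes was 0.935, and across all 19932 genes tested it was 0.77. The latter include genes of lower level than any of the 54, and the part of this in the difference was not tested.

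**Figure D4:**
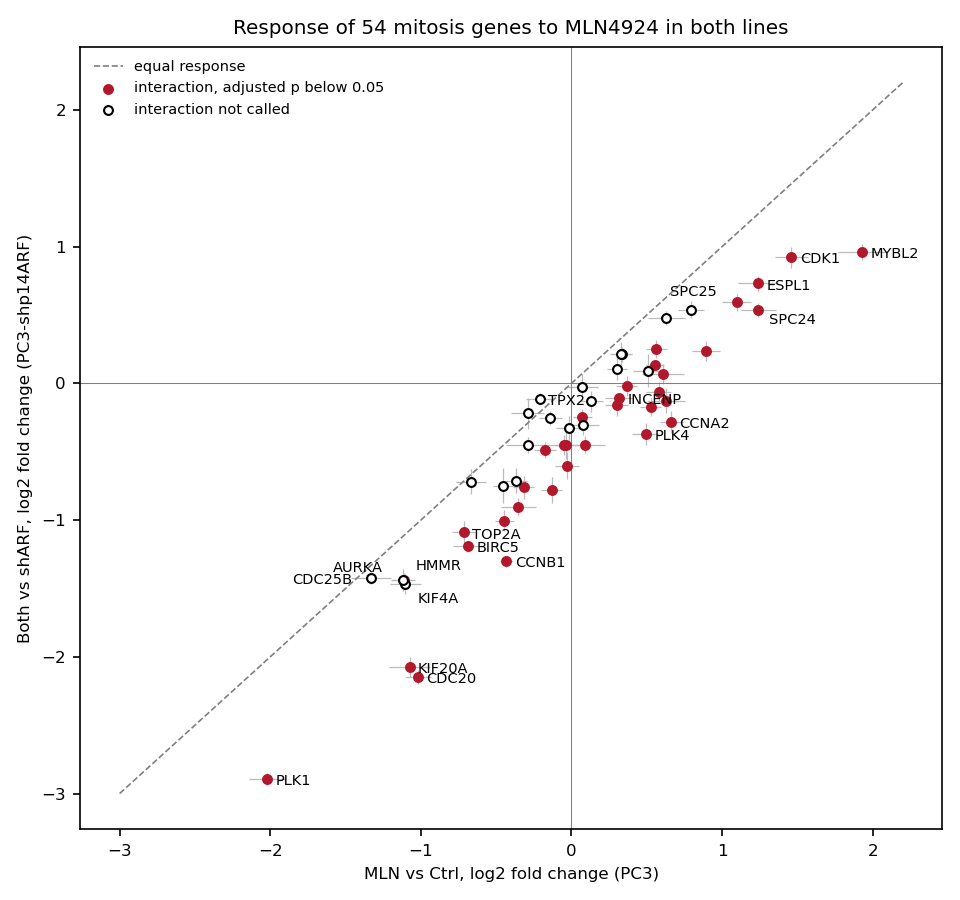
Log2 fold change of each of the 54 genes in MLN vs Ctrl (x axis) and in Both vs shARF (y axis), with standard errors as grey bars; filled red points had an interaction with an adjusted p below 0.05, open points were not called, and the dashed line marks equal responses. 52 of the 54 points lie below the line, and MYBL2 and CDK1 at the upper end and PLK1, CDC20 and KIF20A at the lower end keep their direction in both lines.

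Depletion of p14ARF alone was compared in shARF vs Ctrl. Of the 54 genes, 42 were called higher and 1, CDC25B, lower, against 21.0% and 20.4% of all genes tested, with a median of 0.40 beside 0.00 over all genes tested. The largest change was that of MAD2L1, which went from 23.2, 30.1 and 31.9 TPM in Ctrl to 57.6, 62.6 and 49.3 TPM in shARF (1.00, standard error 0.15, adjusted p = 0.0054). MYBL2 (0.94), CCNA2 (0.82), BIRC5 (0.78), CDCA3 (0.78), CDK1 (0.77), TOP2A (0.76), SPC24 (0.74), PLK4 (0.73) and KIF4A (0.73) followed. The 42 included genes that MLN4924 lowered in PC3 cells, such as PLK1 (0.65), KIF20A (0.64), CCNB1 (0.42) and CDC20 (0.36), and genes that it raised, such as SPC25 (0.68), UBE2S (0.64), CDC25C (0.56) and ESPL1 (0.55). The 11 genes not called were NEK2, BUB3, UBE2C, NDC80, CENPE, KIF18A, KIF23, HMMR, ASPM, DLGAP5 and CKAP2. CDC25B went from 211 to 248 TPM in Ctrl to 186 to 198 TPM in shARF (−0.27, adjusted p = 0.0275), which was lost without Ctrl replicate 3 or any of the 3 shARF libraries (adjusted p between 0.0525 and 0.0895). Calls of KIF2C, ECT2, PTTG1, KIF20B and TPX2 were also lost when a library was left out, each of the 6 libraries costing at least 1 of these calls, and between 37 and 42 genes were called higher in each case.

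With MLN4924 present the same comparison of lines (Both vs MLN, no library shared with shARF vs Ctrl) gave 6 genes higher and 6 lower, against 11.8% and 20.6% of all genes tested, and 42 not called, with a median of 0.00 beside −0.08 over all genes tested. Of the 42 genes higher in shARF vs Ctrl, 6 were called higher (CDC25C, MAD2L1, KIF4A, TPX2, ECT2 and TOP2A), 4 lower (CCNB1, CDC20, PTTG1 and AURKB) and 32 were not called. NEK2 (−0.27) and CKAP2 (−0.36) were the other genes called lower. The same split was not counted over all genes higher in shARF vs Ctrl, so the loss of calls is not shown to be particular to mitosis genes. CDC20 (−0.77, adjusted p = 0.00255) and CCNB1 (−0.45, adjusted p = 0.00186) kept their call without each library in turn, and the other 10 did not. The counts were 0 higher and 2 lower without MLN replicate 2 and without Both replicate 2, 1 and 7 without MLN replicate 1, 6 and 2 without MLN replicate 5, 1 and 8 without Both replicate 3, and 2 and 4 without Both replicate 4. With median-of-ratios scaling 11 were higher and 3 lower, against 18.4% and 17.4% of all genes tested, and over all genes tested the higher share of the calls went from 36.4% to 51.4%.

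**Figure D5:**
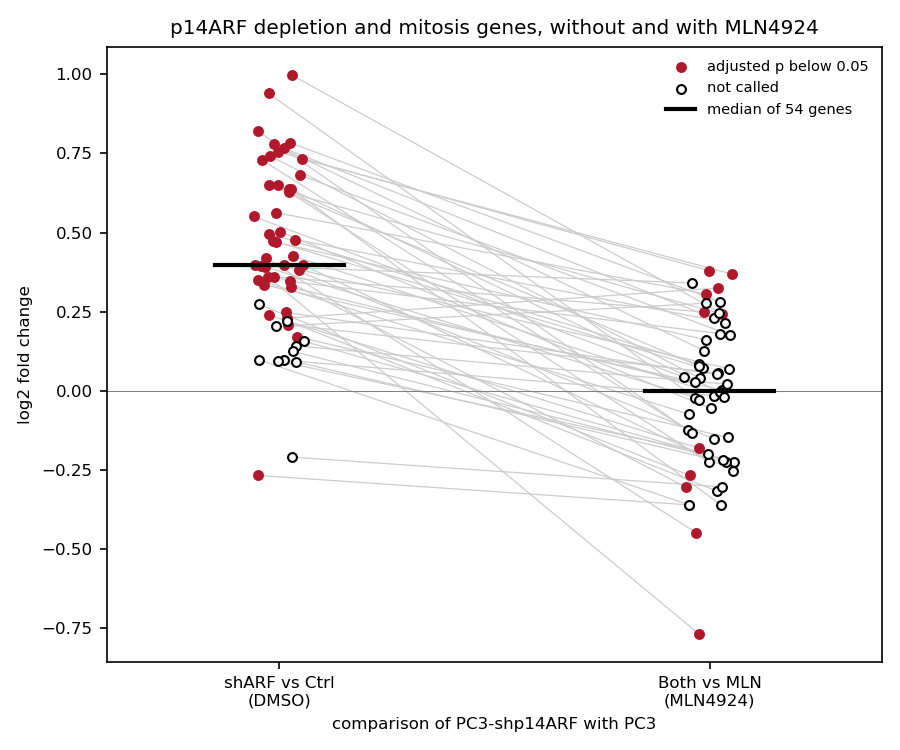
Log2 fold change between PC3-shp14ARF and PC3 cells for each of the 54 genes, with DMSO (shARF vs Ctrl) and with MLN4924 (Both vs MLN); grey lines join the same gene, red points had an adjusted p below 0.05, open points were not called and black bars are medians. The median was 0.40 with DMSO and 0.00 with MLN4924. With DMSO 42 genes were called higher and 1 lower, against 21.0% and 20.4% of all genes tested. With MLN4924 6 were called higher and 6 lower, against 11.8% and 20.6%. For each gene the value with MLN4924 less that with DMSO is its interaction.

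The rest of the mitotic machinery was read from lists of other genes, whose counts stand beside the shares of all genes tested given above (32.2% higher and 29.4% lower in MLN vs Ctrl, 28.3% and 32.8% in Both vs shARF). Of 30 other kinetochore genes, 21 were called higher and 3 lower in MLN vs Ctrl (median 0.64) and 13 and 6 in Both vs shARF (0.18). CENPT, which anchors the outer kinetochore to centromeric chromatin, had the largest rise of this list, from 24.9, 21.0 and 25 TPM in Ctrl to 99.5, 85.1 and 84.9 TPM in MLN (1.92). SKA2 of the microtubule-binding Ska complex had the largest fall (−0.88), and OIP5, which helps load CENPA, the largest interaction (−1.20). Of 20 condensin and cohesin genes, 6 were higher and 8 lower in MLN vs Ctrl (median 0.01) and 5 and 9 in Both vs shARF (−0.19), with CDCA5, the cohesin protector sororin, rising by 1.61, STAG1, a cohesin subunit, falling by 1.74, and the condensin II subunit NCAPH2 having an interaction of −0.93. Of 17 genes of the anaphase-promoting complex and its regulators, 7 were higher and 7 lower in MLN vs Ctrl (median −0.10) and 2 and 9 in Both vs shARF (−0.33). In MLN vs Ctrl they ranged from MAD2L2 at 0.99 to the subunit CDC27 at −0.88, and the inhibitor FBXO5 had an interaction of −0.67.

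Of 23 other spindle and cytokinesis genes, 16 were higher and 3 lower in MLN vs Ctrl (median 0.35) and 5 and 7 in Both vs shARF (−0.03). PKMYT1, the kinase that holds CDK1 inactive, went from 5.49, 5.02 and 6.58 TPM in Ctrl to 43.2, 51.9 and 62.2 TPM in MLN (3.17, standard error 0.16, adjusted p = 2.32e-05) and from 17.8, 15.9 and 19.6 TPM in shARF to 54.8, 49.4 and 58.8 TPM in Both (1.61, adjusted p = 4.34e-05). In each line this was a larger rise than that of any of the 54 genes. FAM83D, a spindle protein that works with HMMR, fell in both lines (−1.65 and −2.20). Of 16 genes of centrosome duplication, 13 were higher and 1, CEP192, lower in MLN vs Ctrl (median 0.62) and 9 and 3 in Both vs shARF (0.35). CDK5RAP2, a scaffold of the pericentriolar material, rose in both lines (2.59 and 2.63), with an interaction that was not called (0.04, standard error 0.09), while HAUS3 had the largest interaction of that list (−0.62). Of 12 genes of the MuvB core and DREAM pocket proteins, 5 were higher and 5 lower in MLN vs Ctrl (median 0.04) and 4 and 6 in Both vs shARF (−0.25), with MYBL1, a relative of MYBL2, rising by 1.28 and E2F5 falling by 1.60.

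S phase genes, which act before mitosis in the cycle, were read beside the mitosis genes. All 32 of that list were called higher in shARF vs Ctrl (median 1.07), against 21.0% of all genes tested, and 30 were higher and 1, POLA1, lower in MLN vs Ctrl (median 0.80). In Both vs shARF 16 were higher and 11 lower (median 0.25), and 26 had a called negative interaction (median −0.82), against 17.1% of all genes tested. RRM2, a subunit of ribonucleotide reductase, rose most in MLN vs Ctrl (2.30) and MCM5 of the replicative helicase had the largest interaction (−1.58). In shARF vs Ctrl, 22 of 30 other kinetochore, 15 of 20 condensin and cohesin and 18 of 23 other spindle genes were also higher. So were 8 of 17 of the anaphase-promoting complex, 11 of 16 of centrosome duplication and 8 of 12 of MuvB and DREAM. Lower were 1, 1, 1, 0, 0 and 1 genes of these lists, in this order. Negative interactions were called for 16, 7, 17, 5, 4 and 4, and positive ones for 1, 1, 0, 0, 0 and 2. Whether S phase and mitosis genes differed in any comparison was not tested.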

How the data were processed

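The submitters listed 4 samples, 1 per condition, and the table holds 3 libraries of each. According to the study's methods, reads were trimmed and mapped to hg38 in CLC Genomics Workbench, expression was quantified on an Ensembl annotation, and the TPM values that the authors deposited cover 43622 genes with no filter on low values. TPM is scaled within each library, so a rise of abundant genes lowers the values of all others, and read depth is not recoverable from it. Libraries were grouped by the condition in their column names, and the numbers in these names are not explained.

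From the deposited TPM, log2(TPM + 0.1) was taken for the 19932 genes whose mean reached 0.1 TPM. Pairwise comparisons were fitted with limma 3.58.1 in R 4.3.3 (lmFit, eBayes with trend, two-sided) to the 6 libraries concerned and the interaction to all 12, and p-values were adjusted by Benjamini-Hochberg across the genes of each fit. The fit was tested on simulated data. The 54 members, their roles, the other gene lists and the cell markers were chosen with earlier results of these data known. Per-library values were given, within each role, for the gene with the highest mean, the highest and lowest fold change in MLN vs Ctrl and the largest interaction; in each other list, for the largest rise, fall and interaction. MAD2L1 was shown because it had the largest change in shARF vs Ctrl. CCNB1, AURKA, CDC25B and the libraries of PKMYT1 and CENPT were shown after their values were seen. Alternatives were pseudocounts of 1 and 0.01, a filter at 1 TPM or none, median-of-ratios scaling, eBayes without trend, one fit of 12 libraries, a replicate block, and each library left out. Promoters are from RefSeq (GRCh38.p14) and exon overlaps from GENCODE on GRCh38, another annotation release than the authors'. Read counts were not used here. Some marker levels and exon overlaps are not reported here.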

Additional observations from a re-analysis of the deposited data

Results flagged for a closer look

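The response to MLN4924 differed between PC3-shp14ARF and PC3 cells for 34 of the 54 mitosis genes, as tested by the interaction, the log2 fold change in Both vs shARF minus that in MLN vs Ctrl (limma, 12 libraries, adjusted p below 0.05 over all genes tested). Beside this, 17.1% of all genes tested had a called negative and 11.2% a called positive interaction. Apart from the replicate block, 22 of the 34 calls were never lost under the alternatives. With median-of-ratios scaling, 24 of the 54 genes were called. All 34 values were negative. Among genes of mitotic entry they were −0.95 for CCNA2, −0.87 for CCNB1, −0.54 for CDK1, −0.87 for PLK1, −0.86 for PLK4, −0.33 for AURKA, −0.54 for NEK2 and −0.65 for CDCA3. In the checkpoint and anaphase group they were −0.56 for BUB1, −0.31 for BUB1B, −0.75 for MAD2L1, −0.65 for TTK, −1.13 for CDC20, −0.54 for UBE2C, −0.64 for UBE2S, −0.42 for PTTG1 and −0.51 for ESPL1. At the kinetochore and centromere the interaction was −0.38 for NDC80, −0.41 for NUF2, −0.70 for SPC24, −0.50 for SPC25, −0.55 for CENPA and −0.45 for CENPF, and in the chromosomal passenger complex −0.70 for AURKB, −0.50 for BIRC5, −0.40 for CDCA8 and −0.42 for INCENP. The kinesins KIF15 and KIF20A had −0.57 and −1.0, the spindle proteins NUSAP1 and CKAP2 −0.31 and −0.46, the furrow scaffold ANLN −0.32, TOP2A −0.38 and MYBL2 −0.97.

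From the other lists, OIP5, NCAPH2, FBXO5, PKMYT1, HAUS3, E2F5 and MCM5 were named because their called interaction was the largest of their list. How many of the named genes were called is therefore not a result about these lists. The interaction was called for 15 of the named genes. It was negative for CDCA5 (−0.92), CENPT (−0.51), FAM83D (−0.55), FBXO5 (−0.67), HAUS3 (−0.62), MAD2L2 (−0.47), MCM5 (−1.58), MYBL1 (−0.69), NCAPH2 (−0.93), OIP5 (−1.20), PKMYT1 (−1.56) and RRM2 (−0.73). It was positive for E2F5 (0.75), SKA2 (0.41) and STAG1 (0.73), each of which fell less in PC3-shp14ARF than in PC3 cells. Groups of 3 libraries are too small for a test of outlying libraries, and none was made.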

How the results depend on the processing

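The counts of mitosis genes in MLN vs Ctrl and Both vs shARF stayed within 1.5 times their values under other pseudocounts, filters, scaling, eBayes without trend, a fit of all 12 libraries and each library left out, and no call of a named gene turned its direction. The gene lower in shARF vs Ctrl became 0 without the filter on low values and with all 12 libraries in one fit, and 0 to 2 with a library left out. In Both vs MLN the count was 2 without the filter (0 higher and 2 lower), 4 without trend (1 and 3), 19 with all 12 libraries in one fit (12 lower), 11 higher and 3 lower with median-of-ratios scaling, and 2 to 9 with a library left out (0 to 6 higher and 2 to 8 lower). The interaction was called for 22 genes, all negative, without the filter. The cause of these changes was not tested. Apart from the replicate block, 36 of 42 rises in shARF vs Ctrl, 21 of 23 rises and 15 of 16 falls in MLN vs Ctrl, 7 of 11 rises and 24 of 30 falls in Both vs shARF, 0 of 6 rises and 2 of 6 falls in Both vs MLN, and 22 of 34 interactions were never lost.

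A replicate block on the library numbers gave 19 calls in MLN vs Ctrl (10 higher and 9 lower), 15 interactions, all negative, and 0 calls in shARF vs Ctrl, higher or lower (37 genes at an unadjusted p below 0.05, 36 of them higher; smallest adjusted p 0.0607). In the pairwise fits the block leaves 1 residual degree of freedom, so little is left to estimate the spread from. The lower counts therefore do not show that pairing removes the changes. Deviations of libraries with the same number correlated between −0.147 and 0.063, and those of libraries with different numbers between −0.113 and 0.126. With so few libraries this does not settle whether the numbers pair them. Both shares 1 number with shARF and 1 with MLN, so no block could be fitted there. TPM carries no depth, so how far the depth of each library limits these calls is unknown.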
